A study of Homo sapiens with 6 samples.

Results

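Expression of 9 genes of MHC class I antigen presentation was followed in THP-1, an established line of monocyte-like cells that was grown from a human acute monocytic leukaemia and serves as a stand-in for monocytes. They were the heavy chain genes HLA-B, HLA-C, HLA-E and HLA-F, the light chain gene B2M, the peptide loading genes TAP1, TAP2 and TAPBP, and NLRC5, chosen by name because each had a value in all 6 libraries. These are 9 of 60325 gene rows and 9 of the 17388 genes with 6 values. RNA-seq was done on 6 libraries: control cells at 6, 24 and 48 h, and cells given recombinant human IL-6 for 6, 24 and 48 h, with 1 library per condition. All are from this 1 cell line, no genotype or other agent is named in the labels, and nothing there says whether the libraries came from separate cultures, so a p-value here reflects the scatter among these libraries alone, which may be technical. The stated aim of the series is to learn how IL-6 alters the expression profile of this line.

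A class I molecule is a membrane-bound heavy chain paired with beta-2 microglobulin, the product of B2M, and it displays peptides from inside the cell to T cells and natural killer cells. Peptides cut by the proteasome are pumped into the endoplasmic reticulum by the transporter formed by TAP1 and TAP2, and tapasin, the product of TAPBP, holds the transporter and empty class I molecules together. NLRC5 is a nuclear activator of class I genes that acts through proteins bound at the X and Y boxes of their promoters, and interferon-gamma is its best known inducer. IL-6 signals mainly through STAT3.

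The promoters of 7 of the 9 genes were matched to RefSeq sequences on GRCh38.p14 (TAP1 with 2 start sites, so 8 sequences); HLA-E and NLRC5 were not matched. These are reference sequences and not the alleles of THP-1. The first set shows HLA-B, HLA-C and B2M, the genes in which an X2 core (TGACG, the site bound by CREB and ATF proteins) and a Y core (CCAAT or its complement ATTGG, bound by NF-Y) lay within 40 bases of each other. Each is printed 5′ to 3′ on the gene's strand from 195 to 41 bases before the start, at chr6:31357220-31357374 (minus strand) for HLA-B, chr6:31272133-31272287 (minus strand) for HLA-C and chr15:44711322-44711476 (plus strand) for B2M. Capitals mark every match to a searched motif.
HLA-B: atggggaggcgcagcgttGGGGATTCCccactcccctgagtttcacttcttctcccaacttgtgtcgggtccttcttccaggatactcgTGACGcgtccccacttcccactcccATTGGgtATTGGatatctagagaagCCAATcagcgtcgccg
HLA-C: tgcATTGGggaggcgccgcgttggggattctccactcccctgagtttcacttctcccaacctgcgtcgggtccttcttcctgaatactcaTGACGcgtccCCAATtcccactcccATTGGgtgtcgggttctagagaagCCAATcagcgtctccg
B2M: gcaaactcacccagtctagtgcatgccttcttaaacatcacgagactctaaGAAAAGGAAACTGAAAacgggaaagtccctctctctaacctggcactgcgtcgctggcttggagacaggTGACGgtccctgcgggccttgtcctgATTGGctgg

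The pair of X2 and Y cores stood in 3 of the 8 sequences and in 4.06% of 35116 RefSeq promoters of the same length (250 bases before to 50 after the start). Singly, TGACG stood in 4 of 8 (HLA-B, HLA-C, B2M and TAP2) against 24.6% of all, and CCAAT in 5 of 8 (HLA-B, HLA-C, HLA-F, B2M and TAP1) against 34.6%. The capitals GGGGATTCC near the start of the HLA-B stretch are a form of the kappa-B motif, read by NF-kappa-B proteins, found in 0.285% of all promoters. The form GGGANTTCC stood in TAPBP and in 1.85% of all.

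The second set shows the core of the interferon-stimulated response element (ISRE: GAAA, any 2 bases, GAAA, on either strand), the site read by interferon regulatory factors. It is printed as 30 bases around the match, which is in capitals, at chr6:29723268-29723297 (plus strand) for HLA-F, chr15:44711366-44711395 (plus) for B2M, and, on the minus strand, chr6:32853816-32853845 for TAP1, chr6:32838778-32838807 for TAP2 and chr6:33314076-33314105 for TAPBP.
HLA-F: ctccccagagTTTCTCTTTCtctcccaacc
B2M: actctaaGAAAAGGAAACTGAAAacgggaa
TAP1: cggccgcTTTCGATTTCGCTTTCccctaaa
TAP2: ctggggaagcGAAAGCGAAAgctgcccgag
TAPBP: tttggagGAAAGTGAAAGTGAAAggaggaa

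The ISRE core stood in 5 of the 8 sequences and in 3.57% of all promoters, and in B2M, TAP1 and TAPBP a pair of matches overlapped. The GAS motif (TTC, any 3 bases, GAA), the site bound by STAT dimers, stood in 1 of 8, at the second start of TAP1, and in 7.66% of all. All motifs were searched on both strands. A match describes the letters and does not show that a factor was bound.

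**Figure D1:**
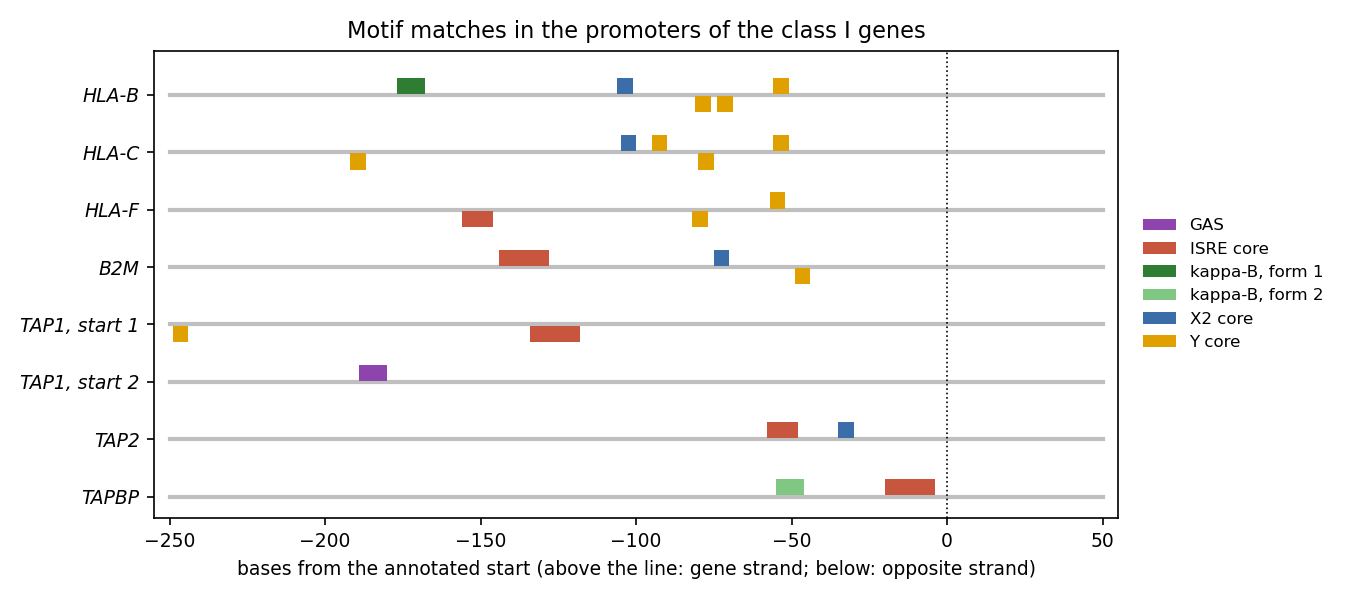
Motif matches in the 8 RefSeq promoter sequences of 7 class I genes, by distance in bases from the annotated start, with matches on the gene strand above each line and on the opposite strand below. The X2 core and the Y core stand close together in HLA-B, HLA-C and B2M, and the ISRE core (overlapping matches merge into a wider block) is in HLA-F, B2M, TAP1, TAP2 and TAPBP.

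The tables hold 1 log2 value per gene and library, centred by the authors so that each gene's mean over its libraries is 0. A value of 1 in a library is therefore 2-fold above the gene's own mean, and values of different genes cannot be compared as levels. The depth in reads is unknown. Between 22000 and 23108 genes had a value per library, and 13573 genes were tested. With IL-6, 31 genes passed as higher and 1 as lower; at 24 h against 6 h it was 189 and 34 (127 and 52 with equal library medians), and at 48 h against 6 h 321 and 171 (257 and 257). These counts depend on the model. Without the variance trend limma called 0 genes in each of the 3 comparisons, with 1083, 1906 and 2235 at an unadjusted p under 0.05, so every call named here is lost in that fit. Without robust shrinkage 10, 57 and 83 genes passed in either direction. With a pair left out the IL-6 count ran from 20 (without 24 h) to 111 (without 6 h). With a library left out the 24 h count ran from 33 (without the control of 24 h) to 469 (without either 48 h library) and the 48 h count from 93 (without IL-6 at 48 h) to 1038 (without the control of 48 h). Of 10 monocytic markers all 10 had values in the 6 libraries, whereas the T and NK cell markers CD3E, CD2 and KLRD1, the B cell marker MS4A1, the fibroblast marker COL1A2 and the erythroid marker HBB had none. The B cell factor gene PAX5 did have a level, of 40.6 in the arbitrary unit explained below. Its log2 values ran widely, from -2.82 in the control library of 6 h to 1.51 in that of 48 h. A level can also be recovered by accident, as it was for 151 of 2000 genes whose values had been shifted at random, so this level is uncertain.

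IL-6 was not found to change any of the 9 genes over the 3 time-matched pairs. By limma with a Benjamini-Hochberg adjusted p under 0.05, 0 of 9 passed, where 0.236% of all genes tested did (32 of 13573). An unadjusted limma p under 0.05 was found in 2 of 9, HLA-F and TAPBP. Over all 13573 genes it was found in 495 higher and 696 lower. The estimates of HLA-F and TAPBP went opposite ways. The median estimate of the 9 was -0.03 on the log2 scale and that of all genes tested also -0.03, with 4 of the 9 positive against 44.1% of all genes. In no gene of the 9 did the IL-6 libraries all lie above or all lie below the control libraries, an arrangement found in 9.24% of all genes tested.

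**Figure D2:**
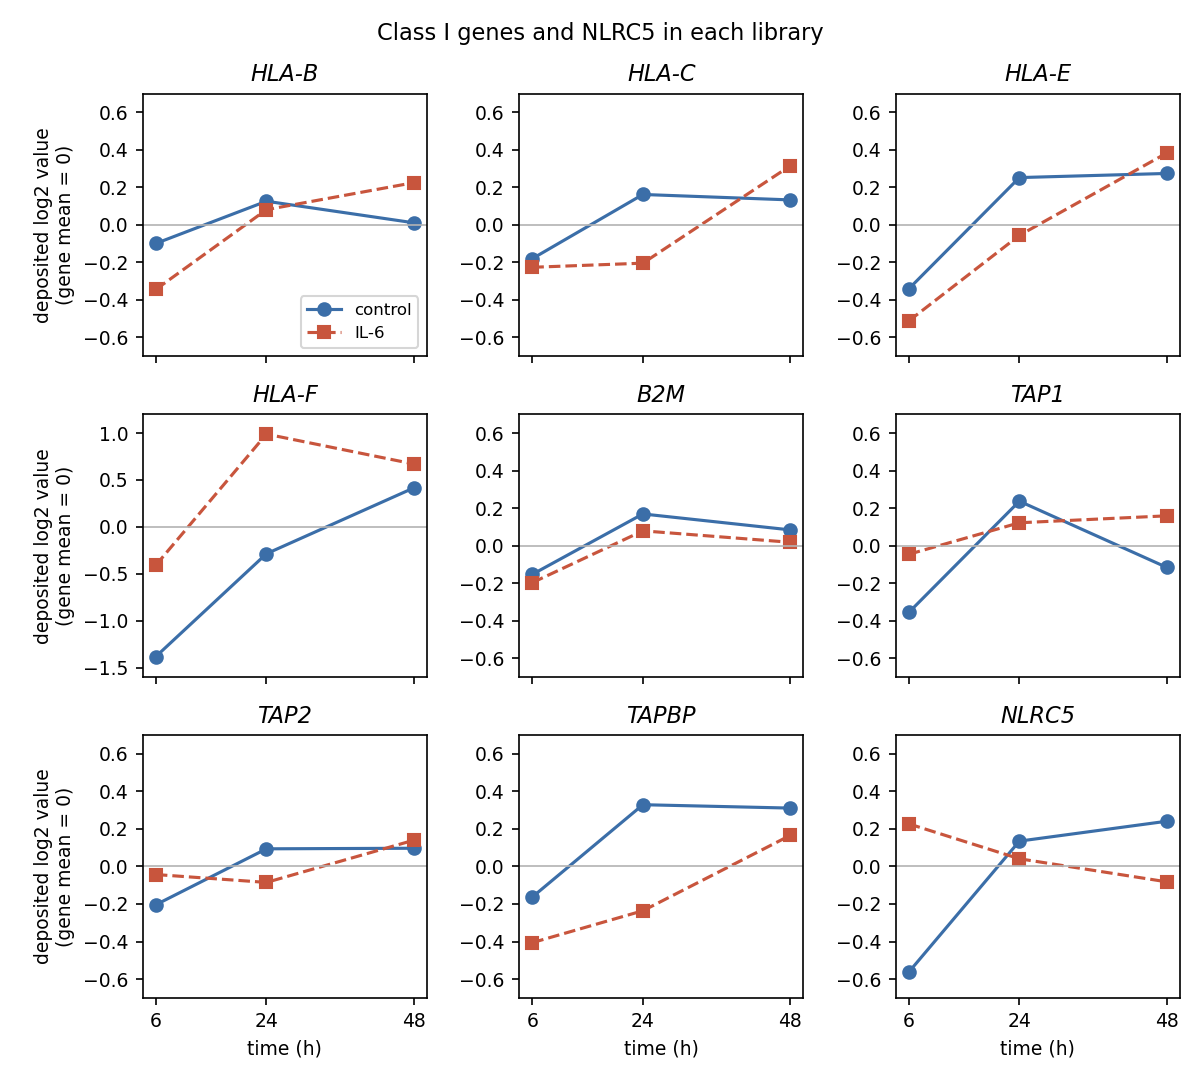
Deposited log2 value (gene mean 0) of each of the 9 genes against time in hours, with blue circles for the control libraries and red squares for the IL-6 libraries, 1 library per point; the panel of HLA-F has a wider axis, from -1.6 to 1.2. Both 6 h libraries are the lowest in HLA-B, HLA-E, HLA-F and B2M, and in NLRC5 the control library of 6 h, at -0.56, stands below the other 5.

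The classical heavy chain genes HLA-B and HLA-C, whose products present peptides to CD8 T cells and are read by natural killer cell receptors, moved within a narrow range. HLA-B (ENSG00000234745.13, chromosome 6, 31353872 to 31357188, minus strand, GRCh38) had log2 values of -0.10, 0.13 and 0.01 in control at 6, 24 and 48 h and of -0.34, 0.08 and 0.23 with IL-6. The IL-6 library was thus the lower of the 2 at 6 and 24 h and the higher at 48 h. The IL-6 estimate was -0.03 ± 0.12 (limma SE, 3 pairs, adjusted p = 0.973), with a 95% interval from -0.29 to 0.24. HLA-C (ENSG00000204525.18, chromosome 6, 31268749 to 31272130, minus strand) stood at -0.18, 0.16 and 0.13 in control and at -0.23, -0.20 and 0.32 with IL-6. Its widest gap was at 24 h, where the IL-6 library was lower by 0.37. The estimate was -0.08 ± 0.12 (limma adjusted p = 0.906), with an interval from -0.35 to 0.20. For both genes this limma interval leaves out a 1.5-fold difference (0.585 on the log2 scale) in either direction. Its width is set largely by the spread of other genes, with 2 residual degrees of freedom beside a median prior of 7.76. Such a difference is therefore not excluded by the gene's own 3 pairs. Class I genes are alike in sequence and differ between people, so reads can be shared among them and the values of single heavy chain genes are uncertain. HLA-B also overlaps a pseudogene on the other strand, ENSG00000271581, at a mean level of 2.96.

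HLA-E (ENSG00000204592.9, chromosome 6, 30489509 to 30494194, plus strand), whose product displays leader peptides of other class I chains to the NKG2 receptors of natural killer cells, was at -0.34, 0.25 and 0.27 in control and at -0.51, -0.06 and 0.38 with IL-6. Both 6 h libraries were the lowest of the 6 whatever the agent. The IL-6 estimate was -0.12 ± 0.12 (limma adjusted p = 0.829), with a 95% interval from -0.38 to 0.14.

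HLA-F (ENSG00000204642.14, chromosome 6, 29722775 to 29738528, plus strand), a non-classical heavy chain gene whose product is a ligand of natural killer cell receptors, had the widest spread, 2.37 between its lowest and highest library. It was at -1.38, -0.29 and 0.42 in control and at -0.41, 0.99 and 0.67 with IL-6. It was the 1 gene of the 9 with a higher value under IL-6 at every time point, a pattern of 12.5% of all genes. The log2 differences were 0.97, 1.28 and 0.25, with an SD of 0.53, and the control library of 48 h lay above the IL-6 library of 6 h. The estimate of 0.83 ± 0.37 had an unadjusted limma p of 0.0493 and an adjusted p of 0.566, so it did not pass.

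A level in an arbitrary unit, in which the smallest step of the authors' values is taken as 0.001, was recovered for 4 of the 9 genes. HLA-F was at 0.712, 1.52 and 2.48 in control and at 1.40, 3.68 and 2.95 with IL-6, low enough to fall out under a filter of 5. Its overlapping antisense gene HLA-F-AS1, from which it cannot be told apart without strand, had a mean level of 0.367 and a different order of libraries, with its highest log2 value, 1.10, in the control library of 6 h, where HLA-F was lowest. For HLA-B, HLA-C, HLA-E, B2M and TAPBP no level was recovered, and such genes were treated as high.

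B2M (ENSG00000166710.22, chromosome 15, 44711487 to 44718851, plus strand), whose product the classical heavy chains need to reach the cell surface, was at -0.15, 0.17 and 0.08 in control and at -0.20, 0.08 and 0.02 with IL-6. The 2 agents stayed close together at each time. The IL-6 library was lower at all 3 times, by 0.04, 0.09 and 0.07, an SD of 0.02. The estimate was -0.07 ± 0.10 (limma adjusted p = 0.901), and its 95% interval, from -0.29 to 0.16, corresponds to 0.816-fold to 1.12-fold.

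TAP1 (ENSG00000168394.12, chromosome 6, 32845209 to 32853816, minus strand) and TAP2 (ENSG00000204267.17, chromosome 6, 32821833 to 32838739, minus strand) encode the chains of the peptide transporter. TAP1 was at -0.36, 0.24 and -0.12 in control and at -0.05, 0.12 and 0.16 with IL-6. Its lowest library was the control of 6 h and its highest the control of 24 h, so the agents overlapped fully. The estimate was 0.16 ± 0.13 (limma adjusted p = 0.792), with differences of 0.31, -0.11 and 0.28. TAP2 was at -0.20, 0.09 and 0.10 in control and at -0.04, -0.09 and 0.14 with IL-6, the narrowest range of the 9. Its estimate was 0.01 ± 0.16 (limma adjusted p = 0.991), with an interval from -0.35 to 0.37. On the level scale TAP1 ran from 43.1 to 65.0 and TAP2 from 14.2 to 17.98. TAP1 lies within the annotated span of PSMB9, on the other strand, and overlaps PSMB8-AS1, which had a mean level of 55.4, so without strand part of its reads may be theirs; TAP2 shares its strand with a longer overlapping transcript gene at a mean level of 2.57.

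TAPBP (ENSG00000231925.13, chromosome 6, 33299694 to 33314254, minus strand) had the lowest IL-6 estimate of the 9. It was at -0.16, 0.33 and 0.31 in control and at -0.41, -0.24 and 0.17 with IL-6, lower with IL-6 at all 3 times, as 18.1% of all genes were. The control library of 6 h nevertheless lay below the IL-6 library of 48 h, so the agents overlapped. The differences were -0.24, -0.57 and -0.14 (SD 0.22), and the estimate of -0.32 ± 0.12 had an unadjusted limma p of 0.0219 and an adjusted p of 0.451, which did not pass. An overlapping gene on the other strand, ENSG00000289100, had a mean level of 21.2 and its highest log2 value, 0.57, in the IL-6 library of 24 h, where TAPBP was at -0.24.

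NLRC5 (ENSG00000140853.17, chromosome 16, 56989485 to 57083531, plus strand) was at -0.56, 0.14 and 0.24 in control and at 0.23, 0.04 and -0.08 with IL-6. Only the control library of 6 h stood apart from the rest, at a level of 7.29 where the other 5 were between 10.2 and 12.7. IL-6 and control thus differed by 0.79 (1.73-fold) at 6 h, by -0.09 at 24 h and by -0.32 at 48 h, an SD of 0.59. The estimate over the 3 pairs was 0.13 ± 0.23 (limma adjusted p = 0.924), and without the 6 h pair it was -0.21.

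**Figure D3:**
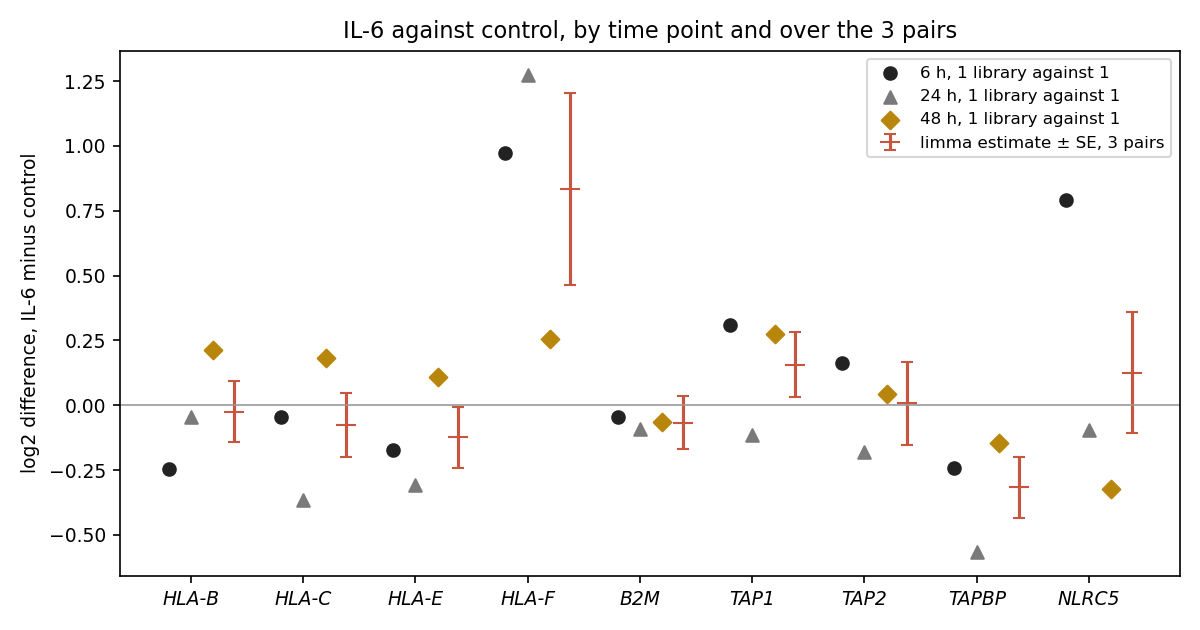
Log2 difference between IL-6 and control for each of the 9 genes at 6 h (circle), 24 h (triangle) and 48 h (diamond), 1 library against 1, beside the limma estimate over the 3 pairs with its SE. HLA-F is above 0 at all 3 times and B2M and TAPBP below 0, while NLRC5 goes from 0.79 at 6 h to -0.32 at 48 h; no estimate passed the adjusted threshold.

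The difference between early and late effect was tested as the IL-6 effect at 6 h minus its mean at 24 and 48 h. None of the 9 genes passed, with 0.332% of all genes called (45 of 13573). For NLRC5 the difference was 0.999 ± 0.460 (limma unadjusted p = 0.0421, adjusted p = 1). Only 1 pair stands behind the 6 h effect and 1 residual degree of freedom behind the SE, which is almost wholly that of other genes, so this p does not measure the spread of the NLRC5 effect at 6 h. Without the variance trend 0 of the 9 had an unadjusted limma p under 0.05.

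At single time points there was no test. At 6 h 2 of the 9 genes, HLA-F (1.96-fold) and NLRC5 (1.73-fold), differed at least 1.5-fold between the IL-6 and the control library, as did 17.4% of all genes. At 24 h it was 1 of 9, HLA-F at 2.42-fold, against 21.1%, and at 48 h 0 of 9 against 18.2%. With a mean level of at least 10 required in the pair, neither HLA-F nor NLRC5 entered at 6 h and the count was 0. In number of genes with a higher value under IL-6, the 9 went from 4 at 6 h to 1 at 24 h and 6 at 48 h, where all genes stood at 52.2%, 43.5% and 44.8%.

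Over time in culture, 1 of the 9 genes changed: HLA-E was higher at 48 h than at 6 h by 0.76 ± 0.14 (limma SE, 1.69-fold, adjusted p = 0.0226), where 2.36% of all genes were called higher. The control libraries differed by 0.62 (1.53-fold) and the IL-6 libraries by 0.90 (1.86-fold). At 24 h the estimate for HLA-E was 0.53 ± 0.14 and did not pass (limma adjusted p = 0.101). There 0 of the 9 passed, against 1.39% of all genes called higher. An unadjusted limma p under 0.05 was found in 6 of 9, and over all 13573 genes in 1693 higher and 653 lower. With equal library medians only HLA-E (0.0128) and HLA-F (0.0313) of the 9 kept such a p at 24 h. The call at 48 h was lost without the control library of 6 h (limma adjusted p = 0.0855), the IL-6 library of 6 h (0.195) or the IL-6 library of 48 h (0.144), without the variance trend (0.247) and without robust shrinkage (0.0755). With the control library of 48 h left out, HLA-C (0.62) and TAPBP (0.65) also passed, at limma adjusted p of 0.0444 and 0.0373, and without either 48 h library HLA-E passed at 24 h (0.0342).

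All 9 genes had a positive estimate at 24 h and at 48 h, where 61.9% and 57.0% of all genes did. The median of the 9 was 0.33 at 24 h and 0.34 at 48 h, beside 0.11 and 0.07 for all genes tested. The 9 estimates stayed positive with equal library medians, and HLA-E then stood at 0.69 (limma adjusted p = 0.0314). With 1 library left out some signs turned. At 24 h HLA-C was at -0.035 and TAP2 at -0.013 without the control of 24 h, and NLRC5 at -0.244 without the control of 6 h. At 48 h NLRC5 alone turned, as given below. Over all 13573 genes, 1759 higher and 1116 lower had an unadjusted limma p under 0.05 at 48 h. Besides HLA-E, 4 of the 9 genes had one and none passed: HLA-F at 1.44 ± 0.46 (limma adjusted p = 0.112), TAPBP at 0.52 ± 0.14 (0.0773), HLA-C at 0.43 ± 0.15 (0.147) and HLA-B at 0.34 ± 0.14 (0.215). The estimates of B2M (0.23), TAP1 (0.22), TAP2 (0.24) and NLRC5 (0.25) were lower.

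In HLA-B, HLA-E, HLA-F and B2M all 4 later libraries lay above both 6 h libraries, an order found in 18.3% of all genes. In HLA-C, TAP2 and TAPBP the IL-6 library of 24 h did not lie above both, and in TAP1 it was the control library of 48 h that did not. Genes with a value numbered 22000 in control and 22333 with IL-6 at 6 h, 23108 and 22733 at 24 h, and 22472 and 22209 at 48 h. The library medians over genes with 6 values were lowest at 6 h, at -0.056 in control and -0.044 with IL-6. What these differences between libraries add to the result was not tested. NKG7, a marker of cytotoxic lymphocytes, passed the limma threshold as higher at both later times, by log2 differences of 0.908 and 1.011. Of the 8 T and NK cell markers 5 had any value and 2 had all 6, and a summed level could not be formed because none was recovered for NKG7; CD3E, CD2 and KLRD1 had no value. Its part in the result was not tested. In bulk RNA a larger share of cells that express a gene and more RNA per cell cannot be told apart.

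For NLRC5 the agents went opposite ways over time. In control cells it was higher by 0.70 at 24 h and 0.80 at 48 h than at 6 h, and in IL-6 cells lower by 0.19 and 0.31. The other 8 genes had a positive difference at 48 h in both agents, HLA-F by 1.80 in control and 1.08 with IL-6. Without the control library of 6 h the estimate of NLRC5 at 48 h was -0.25 in place of 0.25, and without the control library of 48 h it was -0.09.

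**Figure D4:**
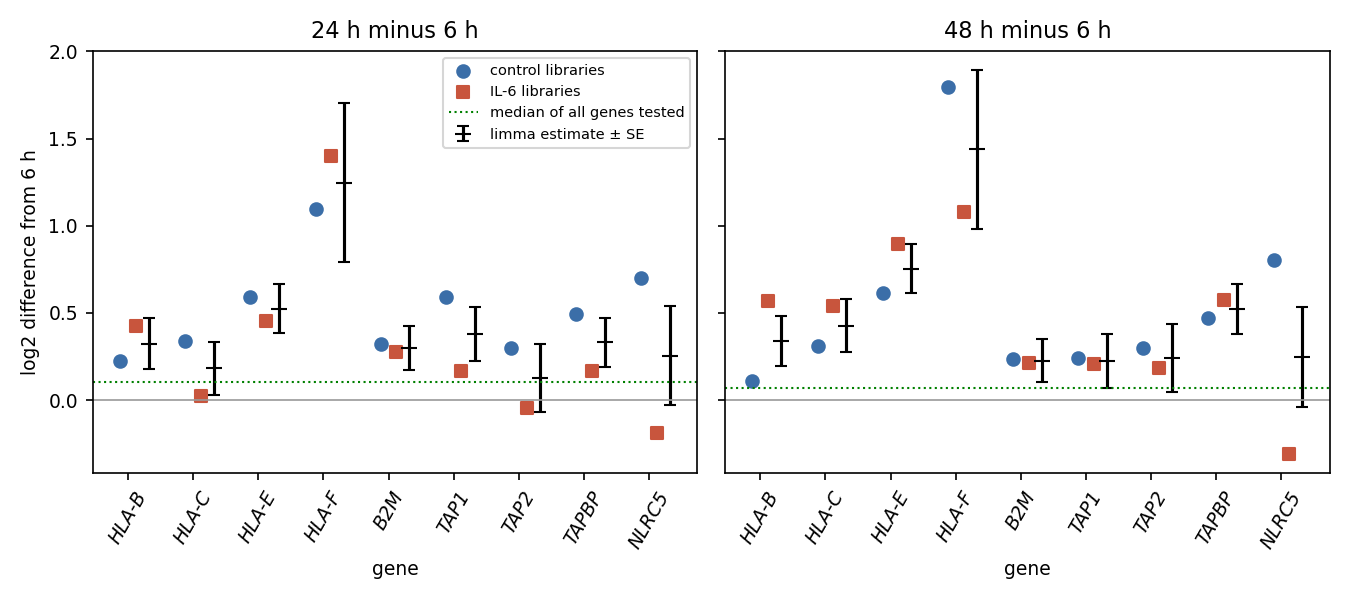
Log2 difference of the 24 h (left) and 48 h (right) libraries from those of 6 h for each of the 9 genes, in control (blue circles) and IL-6 cells (red squares), 1 library against 1, with the limma estimate and its SE in black and the median of all genes tested as a dotted line. HLA-E at 48 h is the estimate that passed, at 0.76, and NLRC5 is the gene whose control and IL-6 values lie on opposite sides of 0 at both times.

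As a description over the 6 libraries, which share time and agent, the values of the class I genes without NLRC5 had Pearson correlations between 0.23 (HLA-F and TAPBP) and 0.91 (HLA-C and HLA-E). Those of NLRC5 with the others ran from -0.06 (HLA-B) to 0.63 (TAP2). Among the genes outside the lists whose 6 values were most like those of NLRC5 were DHX8 (0.99), ZMYM5, ENSG00000253389 and JADE2 (0.97 each), and 12 of 13498 genes reached 0.95. For the mean of the other 8 genes they were JUP and DUSP8P5 (0.995 each), CUL7, SH3GLB2 and IL3RA (0.99 each), and 157 genes reached 0.95.

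Of 14 genes that supply and load peptides, 13 were tested and none passed for IL-6. CALR, which encodes the chaperone calreticulin of the loading complex, was lower at 48 h than at 6 h, by a log2 difference of -0.79 ± 0.14 (limma adjusted p = 0.0192), in a comparison that called 1.26% of all genes lower. It was at 0.29, 0.29 and -0.51 in control and at 0.34, 0.02 and -0.44 with IL-6, so both 48 h libraries were the lowest. The list median was 0.01 for IL-6 and -0.16 for 48 h, where 4 of 13 were positive, beside 9 of 9 for the class I genes and NLRC5; the difference between the lists was not tested. The highest IL-6 estimates were those of the immunoproteasome subunit PSMB8 (0.14 ± 0.10) and the proteasome subunit PSMB6 (0.13 ± 0.12), the lowest those of the tapasin-related TAPBPL (-0.36 ± 0.15) and the peptide-trimming enzyme ERAP1 (-0.27 ± 0.18), none past the threshold.

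Among 18 regulators of class I genes 17 were tested and 1 passed with IL-6, where 0.236% of all genes did. STAT3, through which IL-6 mainly signals, was higher by 0.78 ± 0.12 (limma adjusted p = 0.0320), with values of -0.63, -0.18 and -0.36 in control and 0.20, 0.36 and 0.61 with IL-6 that did not overlap. IRF9, the DNA-binding part of the interferon-activated complex ISGF3, did not pass for IL-6 (0.42 ± 0.12) and was higher at 48 h than at 6 h, by 0.75 ± 0.15 (limma adjusted p = 0.0275), the 1 of 17 called higher there, against 2.36% of all genes. Without the variance trend neither STAT3 nor IRF9 passed. The lowest IL-6 estimates, not past the threshold, were those of IRF8 (-0.37 ± 0.11), a factor of the monocyte lineage, and CREB1 (-0.35 ± 0.12), which binds X2 cores. The list median was -0.04 for IL-6 and 0.29 for 48 h.

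Of 11 other class I and class I-like chains 8 were tested and none passed in any comparison, with a median of -0.10 for IL-6. HLA-H, a pseudogene, and MICB, a stress-induced ligand of NKG2D, had the highest IL-6 estimates (0.34 ± 0.45 and 0.28 ± 0.45), and FCGRT, the neonatal Fc receptor chain, and the pseudogene HLA-L the lowest (-0.41 ± 0.12 and -0.37 ± 0.51). A list of receptors of myeloid cells held 6 genes of the LILR family, of which 2 were tested. For IL-6 LILRB4 was at 0.23 ± 0.14 and LILRB2, which binds class I molecules, at -0.42 ± 0.29, neither past the threshold.

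The last list held genes known to respond to interferon-gamma. It was drawn up with earlier results of these data known, so its direction is not independent evidence. The listed genes GBP1, GBP4, CXCL9, CXCL10 and IDO1 were not tested, for lack of a value in every library or for a low level. The counts that follow say nothing about them. Of 11 tested of 16 listed, 3 passed with IL-6, all higher, where 0.236% of all genes passed, and all 11 had a positive estimate, where 44.1% of all genes did, with a median of 0.50 beside -0.03 for the 9 class I genes and NLRC5, a difference that was not tested. The 3 were the aminopeptidase gene LAP3 (1.43 ± 0.11, limma adjusted p = 0.000439), PARP9 (1.44 ± 0.20, 0.0266) and the Fc receptor gene FCGR1A (0.65 ± 0.10, 0.0403), whose reads can be shared with near-identical copies. Over time 3 others were called higher at 48 h, as 2.36% of all genes were: WARS1, a tRNA synthetase gene (1.504 ± 0.162, limma adjusted p = 0.00261), APOL6 (1.21 ± 0.21, 0.0177) and the guanylate-binding protein gene GBP2 (1.69 ± 0.40, 0.0494). The adhesion gene ICAM1 and GBP2 had the highest IL-6 estimates (2.99 ± 1.42 and 1.47 ± 0.32) and APOL1 and GBP5 the lowest (0.06 ± 0.24 and 0.16 ± 0.37), none of which passed. The IL-6 differences of ICAM1 were 5.75 at 6 h, where the control library stood at -4.84, 0.11 at 24 h and 3.12 at 48 h. The mean level of ICAM1 was low, at 2.78, and that control library was far lower still. The 6 h difference thus rests on 1 library of very low level.

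**Figure D5:**
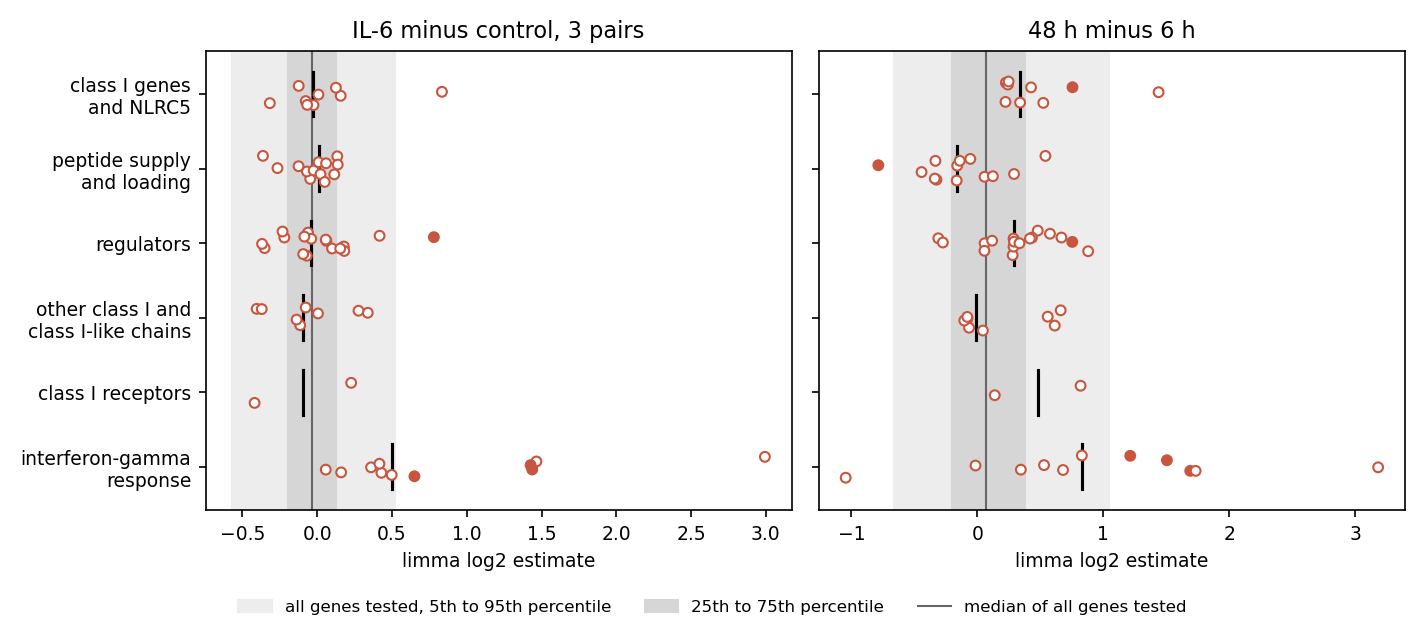
Limma log2 estimates for IL-6 minus control (left) and 48 h minus 6 h (right) of the 9 class I genes and NLRC5 and of 5 lists, 1 circle per tested gene, filled where the adjusted p was under 0.05, with the list median as a black bar and the spread of all genes tested in grey. For IL-6 the class I genes and NLRC5 have a median of -0.03, with TAPBP lowest at -0.32 and HLA-F highest at 0.83. At 48 h all of them lie above 0. The interferon-gamma list has a median of 0.50 for IL-6.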

How the data were processed

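RNA-seq libraries of 6 THP-1 samples were made, per the labels' protocols, by SMART-seq v4 amplification and Nextera XT tagging, which keep no strand. The build was GRCh38 (hg38) per the submitters' processing notes; aligner, counter, annotation and normalization: not given in the sources used here. The deposited values are log2 values that the authors centred per gene (mean 0 within 1.8e-07), with no read counts.

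Levels were recovered where a gene's values, after 1 offset per library, stood in whole-number ratios (15640 genes, and 43 with a library at the floor); 1705 genes had none and were treated as high. Of 2000 decoys 151 matched by accident. limma 3.58.1 in R 4.3.3 was fitted on the log2 values with time and agent over 6 libraries, for 13573 genes that had 6 values and whose mean level was 1 or more, with robust shrinkage and a variance trend on level (2 residual degrees of freedom, median prior 7.76; 1 and 19 for the early model), and Benjamini-Hochberg adjustment over all genes. The script was tested on simulated data for the IL-6 comparison, where unchanged genes made up more of the calls than the 0.05 threshold allows, so adjusted p-values close under it can be too small. Alternatives were other scaling, filters, shrinkage, a pseudocount of 1, no time term, and libraries left out; leaving out single libraries for culture time was added after seeing the data. Genes named outside the 9 were those past the threshold and the 2 highest and 2 lowest IL-6 estimates of each list. GBP1, GBP4, CXCL9, CXCL10 and IDO1 were named because they were listed but not tested. NKG7, PAX5 and overlapping genes were named after their values were seen, and CD3E, CD2, KLRD1, MS4A1, COL1A2 and HBB because they had no value. The 9 genes and the lists were chosen with earlier results of these data known. One gene of the pattern comparison is not reported here.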

Additional observations from a re-analysis of the deposited data

Results flagged for a closer look

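For NLRC5 the control and IL-6 cells went opposite ways over time: both later control libraries lay above the control library of 6 h, and both later IL-6 libraries lay below the IL-6 library of 6 h. The IL-6 effect at 6 h minus its mean at 24 and 48 h was 0.999 ± 0.460 on the log2 scale. By limma its unadjusted p was 0.0421 and its adjusted p 1, so the difference did not pass. The 6 h effect rests on 1 pair and the fit on 1 residual degree of freedom, so the SE and p hold no measured spread of the effect at 6 h. The rise in control and the gap at 6 h rest on the control library of 6 h, at -0.56, against -0.08 to 0.24 in the other 5. The smaller fall with IL-6, by differences of -0.19 and -0.31 from 6 h, does not involve that library. It also rests on 1 library per time.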

How the results depend on the processing

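With no level filter 13 genes passed for IL-6, 125 at 24 h and 247 at 48 h, in place of 32, 223 and 492, where 17388 genes were tested, and with a mean level of at least 5 there were 349 at 24 h. Without the variance trend 0 genes passed for IL-6, 0 at 24 h, 0 at 48 h and 0 in the early against late test, and of the 9 genes 0 at 48 h in place of 1. Without robust shrinkage 10, 57 and 83 genes passed, and 0 of the 9 at 48 h; without the time term 4 genes passed for IL-6. The causes were not tested. On log2(level + 1) only the 4 of the 9 genes with a recovered level, HLA-F, TAP1, TAP2 and NLRC5, could be tested, and 0 of these 4 passed at 48 h; HLA-E was not among them. With a mean level of at least 10 in the pair, 0 of the 9 were 1.5-fold apart at 6 h and 0 at 24 h, since HLA-F and, at 6 h, NLRC5 then dropped out.

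Leaving out each pair gave between 20 (without 24 h) and 111 (without 6 h) genes for IL-6, and 0 of the 9 genes each time. Leaving out each library gave 33 (without the control of 24 h) to 469 (without either 48 h library) genes and 0 to 1 of the 9 at 24 h, and 93 (without IL-6 at 48 h) to 1038 (without the control of 48 h) genes and 0 to 3 of the 9 at 48 h. With 1 residual degree of freedom, the lone library of a time is assumed to vary like the others. The labels give no replicate numbers; the main model is already paired, by its time term. IL-6 estimates that turned sign were those of HLA-B (0.01 with equal medians, 0.09 without 6 h), HLA-C (0.07 without 24 h), TAP2 (-0.07 without 6 h, -0.01 without 48 h) and NLRC5 (-0.21 without 6 h), none of them called. Depth is unknown, so no detection limit is given.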
